A study of Mus musculus with 4 samples.

Results

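Near-cut deletions lie close to a Cas9 cut but leave at least 1 reference base in place between their nearest edge and the cut. They were taken from alleles with 1 contiguous gap, nothing inserted and no mismatch within 10 bp of the gap. The nearest edge had to lie 1 to 10 bp from the cut, and no equivalent placement of the gap, where a repeated base lets it slide, could start at, end at or span the cut. Of 1823 distinct simple deletions at both sites, 106 were near-cut (74 at Site 7 and 32 at Site 9), with 13369 of 1027098 reads. A further 1587 deletions, with 1009557 reads, touched the cut.

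E14 mESCs, male mouse embryonic stem cells of the strain 129/Ola, were lipofected with plasmids for Cas9 nuclease and 1 sgRNA and selected as a pool with puromycin or for GFP. Site 7 and Site 9 had 2 replicate libraries each, and untreated cells were not analysed here. DNA was collected 3 to 7 days later, and PCR products across the target were sequenced to 380601 to 447620 aligned reads per library. The labels number the replicates without saying whether they were separate transfections, so p-values refer only to these libraries.

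Cas9 opens a double-strand break inside the protospacer, the stretch of DNA that pairs with the sgRNA, close to the PAM, the short motif that Cas9 itself reads. The RuvC nuclease domain can cut its strand farther from the PAM than the HNH domain cuts the other strand, which leaves short overhangs that are trimmed or filled before end joining. Most deletions after end joining start at, end at or span the break, and programs that call edits from amplicon reads often count an indel only where it meets the expected cut.

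The amplicons matched mm9 once each. At Site 7 the cut lay between bases 92520184 and 92520185 of chromosome 16, in an intron of Clic6, which encodes a chloride intracellular channel family protein, and 81527 bp from Runx1, the transcription factor gene that the labels give for this site. The Site 7 sgRNA reads the minus strand, so the PAM lies to the left of the cut in the plus-strand sequences printed here. At Site 9 the cut lay between bases 92370121 and 92370122 of chromosome 6, in an intron of Prickle2, a planar cell polarity gene, and 15 bp from a coding exon (92370137 to 92370340). There the PAM lies to the right. The windows chr16:92520160-92520209 and chr6:92370097-92370146 are shown with the protospacer in capitals.

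Site 7: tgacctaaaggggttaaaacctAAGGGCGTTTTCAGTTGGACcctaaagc
Site 9: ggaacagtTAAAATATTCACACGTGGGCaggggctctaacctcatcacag

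The cut itself falls between the lower-case letters and the capitals in the next pair, chr16:92520175-92520194 and chr6:92370112-92370131. At Site 7 it splits a run of G, and at Site 9 it does so too, so that a lost G could not be placed and was counted as touching.

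Site 7 cut: aaaacctaagGGCGTTTTCA
Site 9 cut: ttcacacgtgGGCAGGGGCT

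The 3 near-cut deletions with most reads on each side of each site, and the largest found with at least 10 reads in both libraries, are shown next to let their edges be compared. Each has its deleted bases in capitals within the plus-strand reference. At Site 7 the first 3 lie on the PAM side and the others on the protospacer side, all in windows that begin at base 92520164.

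1 bp on the PAM side: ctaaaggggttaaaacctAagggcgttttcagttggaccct
9 bp on the PAM side: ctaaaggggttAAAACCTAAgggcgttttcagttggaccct
10 bp on the PAM side: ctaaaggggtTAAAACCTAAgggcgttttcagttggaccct
4 bp on the protospacer side: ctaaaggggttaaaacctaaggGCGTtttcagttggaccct
2 bp on the protospacer side: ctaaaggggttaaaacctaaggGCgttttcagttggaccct
5 bp on the protospacer side: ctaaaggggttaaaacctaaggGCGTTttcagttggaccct
25 bp on the protospacer side: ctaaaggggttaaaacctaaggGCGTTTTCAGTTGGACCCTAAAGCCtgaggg

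At Site 9, in windows that begin at base 92370101, the first 3 lie on the protospacer side and the others on the PAM side.

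1 bp on the protospacer side of Site 9: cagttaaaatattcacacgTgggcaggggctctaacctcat
3 bp on the protospacer side of Site 9: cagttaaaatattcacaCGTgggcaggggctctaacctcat
14 bp on the protospacer side of Site 9: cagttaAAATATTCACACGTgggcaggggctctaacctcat
2 bp, 2 bp from the cut of Site 9: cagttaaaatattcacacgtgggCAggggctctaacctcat
2 bp, 1 bp from the cut of Site 9: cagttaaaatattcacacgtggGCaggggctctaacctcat
21 bp on the PAM side of Site 9: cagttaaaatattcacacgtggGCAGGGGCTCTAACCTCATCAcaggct

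Near-cut deletions made up a small share of all reads, and a larger one at Site 7 than at Site 9. They were 1.09% of aligned reads in the first Site 7 library (4344 reads, with a 95% Wilson interval from 1.06 to 1.13%) and 1.26% in the second (5182 reads, 1.23 to 1.30%). The Site 9 libraries had 0.433% (1938 reads, 0.414 to 0.453%) and 0.501% (1905 reads, 0.479 to 0.523%). Reads were amplified without molecular identifiers, so all intervals cover counting error only. Averaged by site this was 1.18% ± 0.119 against 0.467% ± 0.0478 (n = 2 each, SD), and the sites did not overlap. The difference of 0.710 percentage points gave p = 0.333 in an exact two-sided permutation test (0.333 after Benjamini-Hochberg adjustment over 6 comparisons), the smallest p that 2 libraries against 2 can give. Set against the deletions that touched the cut, the sites were closer, Site 7 having 1.45 ± 0.137 near-cut reads per 100 touching reads and Site 9 having 1.10 ± 0.142 (n = 2 each, SD).

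None of these reads counted as edited in the deposited calls. All 13369 near-cut reads were called unmodified, with 0 deleted bases recorded, whereas all 993728 reads whose leftmost gap placement touched the cut were called modified. The 15829 touching reads whose gap reached the cut only in another equivalent placement were also all called unmodified. The share called modified was thus 0% of near-cut reads in every library, against 98.3%, 98.6%, 98.4% and 98.3% of touching reads in Site 7 replicates 1 and 2 and Site 9 replicates 1 and 2. The mean difference was -98.4 percentage points. The definition of near-cut deletions and the deposited calls both rest on contact with the cut, so this is a description of the calls and no test is read from it.

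Near-cut deletions were a large part of the reads left as unmodified at Site 7 and a small part at Site 9. At Site 7, near-cut deletions were 31.0% of unmodified reads in replicate 1 (of 14019 reads) and 35.3% in replicate 2 (of 14670 reads), a mean of 33.2% ± 3.07 (SD, n = 2). At Site 9, where far more reads were unmodified, they were 1.21% of 160361 reads and 1.26% of 151752 reads, a mean of 1.23% ± 0.0331 (SD, n = 2). Counting them as edited would raise the modified share from 96.5% ± 0.0302 to 97.6% ± 0.0886 at Site 7 and from 62.2% ± 2.86 to 62.6% ± 2.81 at Site 9 (n = 2 each, SD). The rise was larger than the spread of the modified share between replicates at Site 7 but not at Site 9. Within a library the rise is its near-cut share of aligned reads, 0.433 and 0.501 percentage points in Site 9 replicates 1 and 2.

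**Figure D1:**
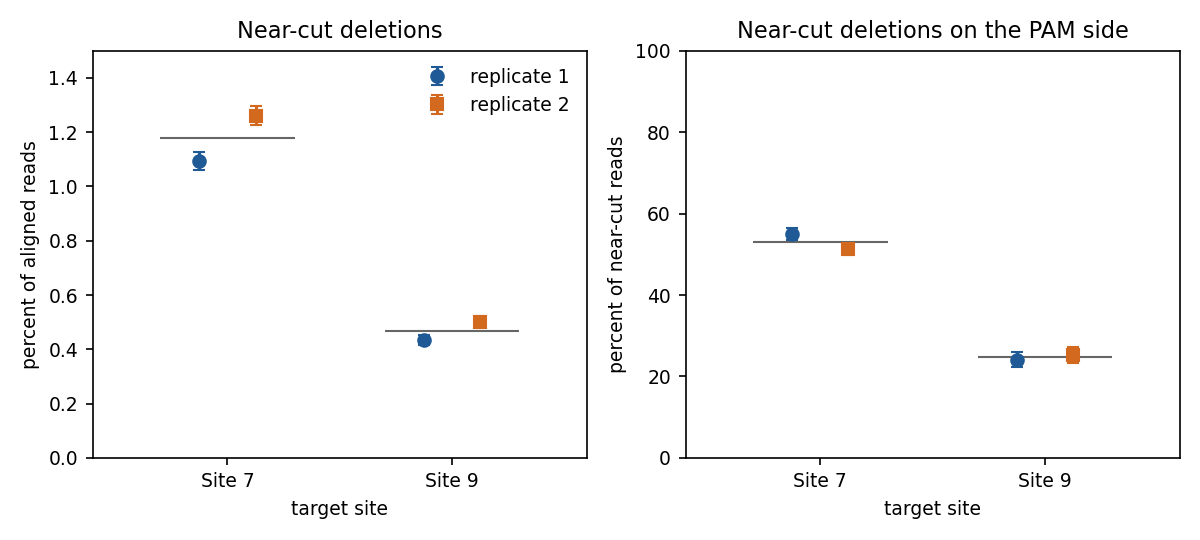
Near-cut deletions in each library, as percent of aligned reads (left) and the part of them on the PAM side, as percent of near-cut reads (right). Points are libraries with 95% Wilson intervals and lines are site means: Site 7 lies above Site 9 in both plots, at 1.18% against 0.467% and 53.1% against 24.6%.

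The reads crowded against the cut. At Site 7, 58.2% and 57.7% of near-cut reads in replicates 1 and 2 lay 1 bp from it, and 91.9% and 93.2% lay 1 to 2 bp from it. At Site 9, 84.7% and 77.1% lay 1 bp away and 98.9% and 92.5% lay 1 to 2 bp away. Only 0.110% ± 0.0903 of near-cut reads at Site 7 and 0.519% ± 0.288 at Site 9 lay 6 to 10 bp away (n = 2 each, SD), and no member lay farther than 9 bp. Of the distinct deletions, 54 of 74 at Site 7 and 24 of 32 at Site 9 lay within 2 bp. Just inside the 1 bp limit of the definition stood 2529, 2988, 1641 and 1468 reads in Site 7 replicates 1 and 2 and Site 9 replicates 1 and 2. No read had a deletion 10 bp from the cut, and 11 bp from it, just outside, stood 1, 0, 0 and 90 reads. These distances are those of the leftmost placement. By the closest placement, near-cut reads rose from 1938 to 1957 and from 1905 to 1993 in Site 9 replicates 1 and 2, and did not change at Site 7.

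Averaged over 1 to 10 bp from the cut, simple deletions held more reads per position than from 11 to 60 bp. Near-cut deletions held 217 and 259 reads per position at Site 7 and 96.9 and 95.3 at Site 9 in replicates 1 and 2, a position being a distance on 1 side. Positions 21 to 40 bp from the cut held 1, 1, 153 and 35 reads in all in the same libraries. Per position, near-cut reads were therefore 8688 times (exact 95% interval 1559 to 343236) and 10364 times (1859 to 409434) as frequent as these distant reads at Site 7. At Site 9 the ratios were 25.3 (21.5 to 30.1) and 109 (78.0 to 157), lower than at Site 7 by more than their counting intervals. The Site 7 ratios rest on 1 distant read in each library. On the log2 scale the ratios were 13.08, 13.34, 4.66 and 6.77, with a mean of 9.46 ± 4.41 (SD, n = 4). They were above 0 in 4 of 4 libraries, and the exact two-sided sign-flip permutation test gave p = 0.125 (adjusted p = 0.188), the smallest it can give. Against positions 11 to 20 bp from the cut, the log2 ratios were 7.38, 9.75, 5.43 and 4.13, still above 0 in 4 of 4 libraries but with the Site 9 replicates in the opposite order. The excess in Site 9 replicate 1 lay 1 to 2 bp from the cut, with 479 reads per position. Its positions 3 to 10 bp away averaged 1.375 reads, below 2.25 at 11 to 20 bp and 3.825 at 21 to 40 bp. In the other libraries, positions 3 to 10 bp away held more than both. They averaged 21.9, 21.9 and 8.94 reads in Site 7 replicates 1 and 2 and Site 9 replicate 2. In Site 9 replicate 2 this rested on 1 position, 3 bp away on the protospacer side, with 126 of the 143 reads.

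**Figure D2:**
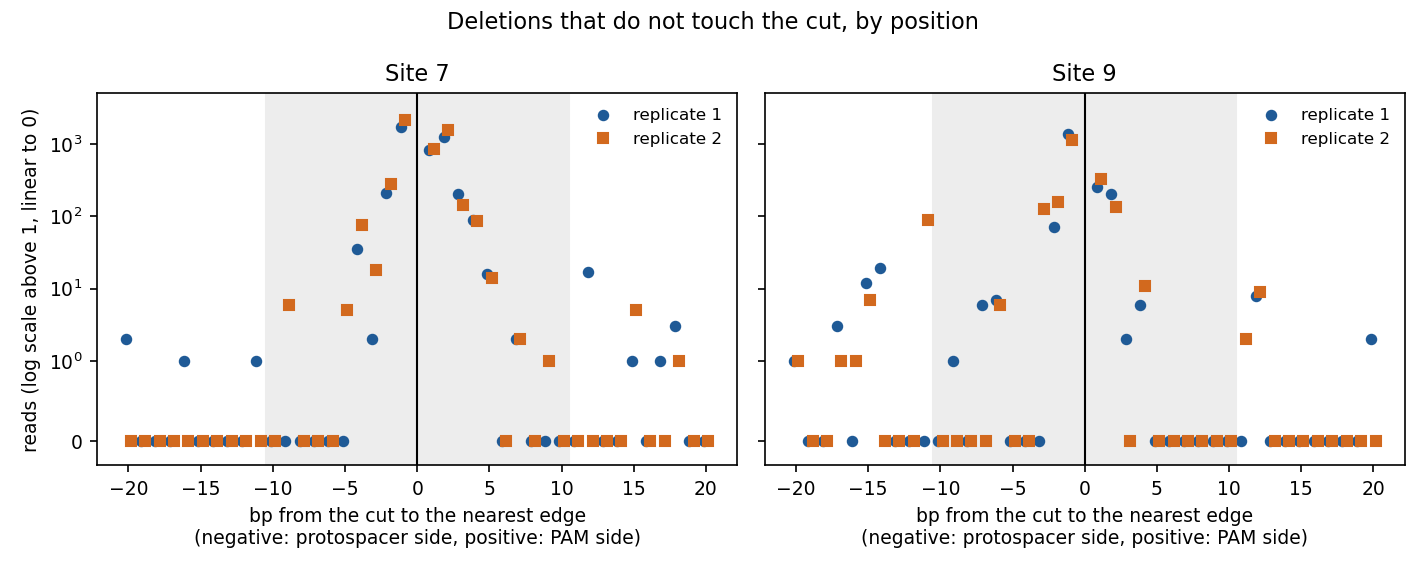
Reads with a simple deletion that does not touch the cut, against the distance in bp from the cut to its nearest edge (protospacer side negative, PAM side positive), on a log scale with 0 shown. Points are libraries and the grey band marks 1 to 10 bp: the counts peak 1 to 2 bp from the cut on both sides, at up to 2143 reads at Site 7 and 1385 at Site 9, and stay below 20 reads at each position 6 to 20 bp from it, other than 88 reads 11 bp from the cut on the protospacer side in Site 9 replicate 2.

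The PAM side held a larger part of near-cut reads at Site 7 than at Site 9. At Site 7 the PAM side held 54.9% (53.4 to 56.4%) and then 51.2% (49.9 to 52.6%) of near-cut reads in replicates 1 and 2. At Site 9 it held 24.1% (22.2 to 26.1%) and 25.2% (23.3 to 27.2%). The averages of 53.1% ± 2.58 and 24.6% ± 0.778 (n = 2 each, SD) stood apart, with no overlap of libraries. The difference of 28.4 percentage points gave p = 0.333 in an exact two-sided permutation test (adjusted p = 0.333), again the smallest possible. It rested on the single most abundant deletion of each site: without these the Site 7 mean was 36.1%, the Site 9 mean 43.1% and the difference -6.98 points (p = 0.667, exact permutation test). Counting each distinct deletion once left a difference of 6.04 points.

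On the protospacer side, 1 edge position stood out at both sites. Deletions whose near edge left exactly 1 protospacer base between it and the cut, which places that edge 4 bp from the PAM, took 40.4% ± 1.34 of near-cut reads at Site 7 and 65.5% ± 8.40 at Site 9 (n = 2 each, SD). At Site 7 these were 25 distinct deletions of 25 different sizes, from 2 to 66 bp, of which 10 were found in both libraries. At Site 9 they were 8 deletions of 1 to 32 bp, of which 4 were in both. If the cut is set 4 bp from the PAM in place of 3 bp, these deletions touch it, and the near-cut share becomes 19.6% at Site 7 and 0.790% at Site 9, now with 99.6% and 95.6% of it on the PAM side.

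On the PAM side no single position took such a share when gaps were placed leftmost. At Site 7, 17.5% ± 1.74 of near-cut reads lay 1 bp from the cut, 29.5% ± 0.897 lay 2 bp from it, 3.76% ± 1.39 lay 3 bp and 1.84% ± 0.289 lay 4 bp from it (n = 2 each, SD). At Site 9, 15.3% ± 3.02 lay 1 bp and 8.81% ± 2.36 lay 2 bp from it (n = 2 each, SD), and the libraries did not overlap between these distances. Distances are those of the leftmost placement, which on the left of the cut is the placement farthest from it. This sets the peak at 2 bp on the PAM side of Site 7, where 1 A of a pair is lost. By its closest placement that loss, 26.2% and 26.8% of near-cut reads in replicates 1 and 2, lies 1 bp from the cut. With closest placements, the PAM-side position 1 bp from the cut of Site 7 held more reads than the protospacer-side one, in both libraries. The lack of a dominant PAM-side position at Site 7 therefore depends on the placement. Taking the closest placement changed the PAM-side difference between the sites only to 29.1 points.

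The loss of 1 A was the most abundant near-cut deletion of Site 7. It removed base 92520182, or equally 92520183, in 1137 reads of replicate 1 (0.286% of aligned reads) and 1388 of replicate 2 (0.338%), which was 26.2% and 26.8% of near-cut reads. Next to the cut, the loss of 1 G from the run that the cut splits was 60.9 and 48.1 times as frequent, with 69215 and 66732 reads. The counterpart at Site 9 was the loss of T at 92370120, in 997 reads (0.223%) and 594 reads (0.156%), or 51.4% and 31.2% of near-cut reads. The loss of 1 G at the cut of Site 9 was 23.6 and 26.6 times as frequent. The T deletion was the member whose replicates differed most in reads at Site 9, and it was lower in replicate 2 by more than the counting intervals.

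Single-base losses of this frequency were found only beside the cut within the stretch searched. At each single base or run of 1 base 11 to 60 bp from the cut, on either side, the highest count of a single-base deletion was 3 and 5 reads at Site 7 and 12 and 69 reads at Site 9, in replicates 1 and 2. Within 1 to 10 bp of the cut the losses fell on some of the runs: 5 and 6 of 10 runs at Site 7 and 6 and 3 of 15 at Site 9 had lost a base in any read. The loss of C at 2 bp on the protospacer side of Site 7, named after its values were seen, had 162 and 125 reads, well below the loss of A.

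The other abundant members of Site 7 were short and mostly without microhomology, the repeated bases at both ends of a deletion that some repair pathways anneal. The 4 bp deletion 92520186 to 92520189 had 790 and 908 reads (0.199% and 0.221% of aligned reads). The 2 bp deletion 92520186 to 92520187, which can slide by 1 base, had 421 and 597 reads (0.106% and 0.145%), and the 5 bp deletion 92520186 to 92520190 had 152 and 191 reads (0.0382% and 0.0465%). All 3 share their left edge. On the PAM side, the 9 bp deletion 92520175 to 92520183 had 406 and 421 reads (0.102% in both libraries), the closest match between replicates among the named deletions. The 10 bp deletion 92520174 to 92520183 had 95 and 168 reads (0.0239% and 0.0409%). The replicate intervals of the 9 bp deletion, from 0.0927 to 0.113% and from 0.0931 to 0.113%, nearly coincided, while those of the 2 bp and 10 bp deletions did not overlap.

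At Site 9 the 3 bp deletion 92370118 to 92370120, on the protospacer side, had 275 and 271 reads (0.0614% and 0.0712%), and the 14 bp deletion 92370107 to 92370120 had 54 and 53 reads (0.0121% and 0.0139%). Both ended at the same base as the T deletion. On the PAM side the replicates disagreed. The 2 bp deletion 92370124 to 92370125 had 201 and 76 reads (0.0449% and 0.0200%). The 2 bp deletion 92370123 to 92370124 had 188 reads in replicate 2 (0.0494%) but 0 of 447620 in replicate 1, which allows a share of up to 0.000670%.

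**Figure D3:**
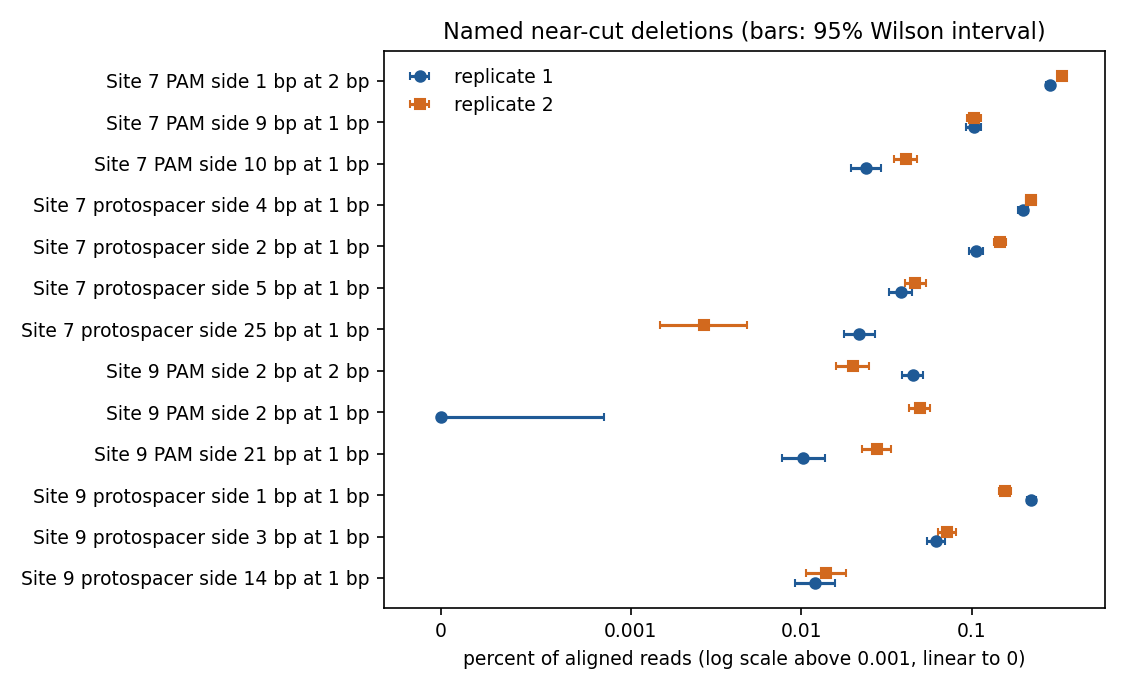
Percent of aligned reads of the 13 named near-cut deletions, on a log scale with 0 shown. Each row is a deletion, named by site, side, size and distance from the cut, and points are libraries with 95% Wilson intervals: the loss of 1 A at Site 7 is highest (0.286% and 0.338%), and the 2 bp deletion 1 bp from the cut of Site 9 has 0 reads in replicate 1.

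Each named deletion was set against the deletion of equal size that abuts the cut on the same side, counted with its equivalent placements. For small members the abutting deletion was far more frequent, with 48.5 and 34.5 times the reads of the 2 bp deletion of Site 7 in replicates 1 and 2 and 53.8 and 94.8 times those of the 2 bp deletion that lies 2 bp from the cut of Site 9. It had 8.46 and 6.02 times the reads of the 4 bp deletion of Site 7, 2.60 and 2.92 times those of the 5 bp deletion, 4.11 and 4.48 times those of the 9 bp deletion and 14.2 and 8.33 times those of the 10 bp deletion. The ratios of Site 7 thus fell from 2 to 5 bp but not steadily beyond. At Site 9 they were 19.8 and 13.2 for the 3 bp deletion and 3.65 and 4.62 for the 14 bp deletion. At Site 7 the abutting counterparts of the 2 bp and 4 bp deletions had 2 equivalent placements, 1 of which spans the cut. So did those of the 2 bp and 3 bp deletions of Site 9. The other counterparts in these ratios had 1 placement, so a fall with size cannot be told apart from this difference. For the largest members with at least 10 reads in both libraries the order turned. The 25 bp deletion 92520186 to 92520210 of Site 7 had 87 and 11 reads against 0 and 9 for its abutting counterpart. The 21 bp deletion 92370123 to 92370143 of Site 9 had 46 and 105 reads against 0 in both libraries. These are 2 deletions with few reads, and no test was made of the order. They were chosen by their near-cut reads, with no condition on the abutting deletion, so the choice itself favours this order.

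Near-cut deletions were shorter than those that touched the cut in 3 of 4 libraries and equal in the other. The median size per read was 4, 4, 1 and 3 bp in Site 7 replicates 1 and 2 and Site 9 replicates 1 and 2, against 4, 5, 8 and 8 bp for touching deletions. Without single-base deletions, the medians were 5, 4, 3 and 4 bp for near-cut and 7, 8, 8 and 10 bp for touching deletions, lower for near-cut in 4 of 4 libraries. Deletions over 20 bp made up 3.28% ± 0.245 of near-cut reads at Site 7, against 16.3% ± 3.14 of touching reads, and 8.85% ± 9.16 at Site 9, against 27.8% ± 3.55 (n = 2 each, SD). The definition takes part in these size differences. A longer deletion has more positions that touch the cut, while the near-cut window is the same for every size. The largest near-cut deletion was 66 bp at Site 7 and 49 bp at Site 9.

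Single-base deletions were 31.1% and 30.5% of near-cut reads at Site 7 and 52.1% and 31.9% at Site 9, against 21.5%, 19.9%, 12.2% and 9.96% of touching reads in the same libraries. The mean difference was 20.5 ± 14.1 percentage points (SD, n = 4), positive in 4 of 4 libraries (p = 0.125, exact two-sided sign-flip permutation test, adjusted p = 0.188, the smallest it can give). Here too the definition takes part, since a single-base deletion has the fewest positions that touch the cut. The positive sign of the difference rested on the losses of A and T. Without the most abundant near-cut deletion of each site, but with every touching deletion kept, the difference was -12.3 points. It was -0.37 points when touching was judged by the leftmost placement alone, which counts the deletions that reach the cut only by sliding as near-cut.

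**Figure D4:**
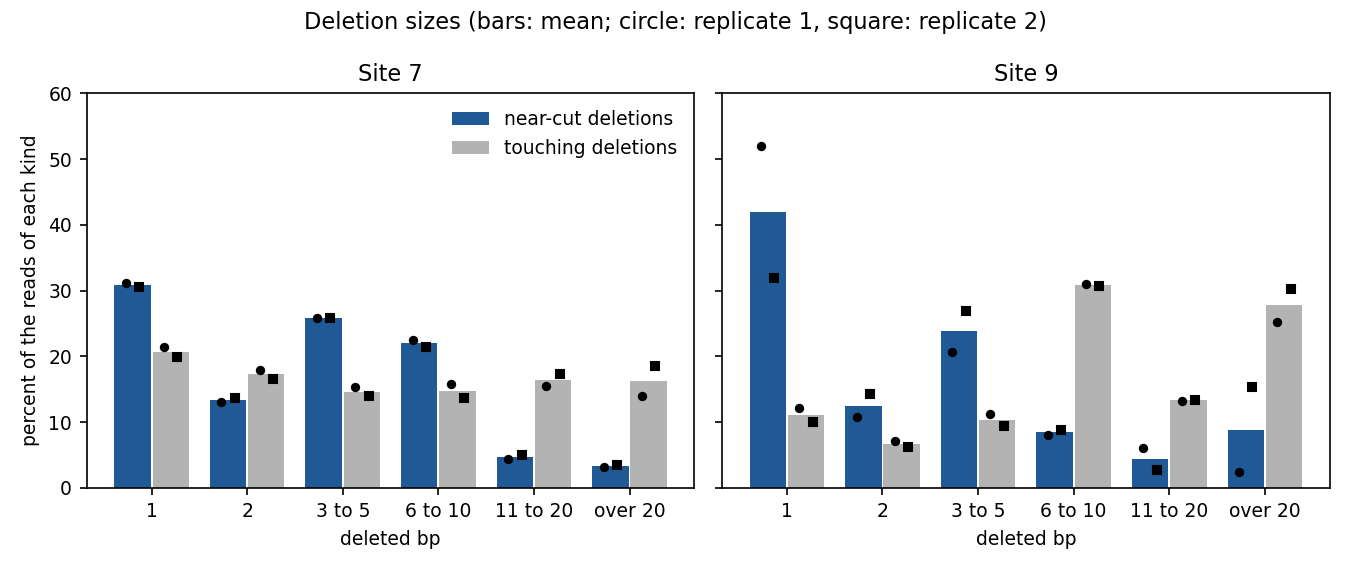
Sizes of near-cut deletions (blue) and of deletions that touch the cut (grey), as percent of the reads of each kind. Bars are means of 2 libraries starting at 0, and circles and squares are replicates 1 and 2: deletions over 20 bp are a smaller part of near-cut reads, at 3.28% against 16.3% at Site 7 and 8.85% against 27.8% at Site 9. Part of this follows from the definition, as longer deletions have more positions that touch the cut.

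Microhomology of at least 2 bp was found in 5.87% and 6.21% of near-cut reads at Site 7 and 0.619% and 4.99% at Site 9, against 18.4%, 22.3%, 38.5% and 45.0% of touching reads. The mean difference was -26.6 ± 14.3 percentage points (SD, n = 4), negative in 4 of 4 libraries (p = 0.125, exact two-sided sign-flip permutation test, adjusted p = 0.188, the smallest it can give). The definition takes part in this, since a deletion with microhomology has several placements and is left out if any of them touches the cut. With distances from the closest placement, the near-cut shares at Site 9 were 1.58% and 9.18% in replicates 1 and 2. With touching judged by the leftmost placement alone the mean difference was -6.31 points (p = 0.75, exact permutation test), and the sites went opposite ways. Near-cut reads then had the higher share at Site 7, with 47.8% against 17.4% and 42.1% against 21.5% in replicates 1 and 2, and the lower share at Site 9, with 4.56% against 39.0% and 3.91% against 45.7%. No microhomology at all was found in 51.1% ± 3.48 of near-cut reads at Site 7 and 90.7% ± 0.329 at Site 9 (n = 2 each, SD), and 50 of 74 and 23 of 32 distinct deletions had a single possible placement.

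The deletions took away different parts of the target. At Site 7, 49 of 74 left every base of the PAM in place, with 75.8% ± 1.64 of near-cut reads (SD, n = 2), and 22 removed a G of the PAM, with 24.4% and 20.5% in replicates 1 and 2. At Site 9, 23 of 32 left the PAM whole, with 80.4% ± 6.24 of reads (SD, n = 2), and 6 removed a G of it, with 8.62% and 10.1%. Most of these counts of a whole PAM follow from the definition, since a protospacer-side deletion cannot reach the PAM without touching the cut. Such deletions numbered 45 at Site 7 and 21 at Site 9, with a mean of 46.9% and 75.4% of near-cut reads. The named 9 bp and 10 bp deletions of Site 7 and the 21 bp deletion of Site 9 remove the whole PAM. At Site 9, 2 near-cut deletions, of 20 and 21 bp, reached the splice donor and the adjoining bases of the Prickle2 exon, the last of it in the direction of transcription. Together they had 104 and 105 reads, or 5.37% and 5.51% of near-cut reads. The replicates disagreed on each, with 58 and 0 reads for the 20 bp deletion and 46 and 105 for the 21 bp deletion.

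The replicates shared most near-cut reads but far fewer of the distinct deletions. At Site 7, 33 of 74 were found in both libraries, which was 86.8% of those of replicate 1 and 47.8% of those of replicate 2, and held 95.4% and 90.6% of reads. At Site 9, 13 of 32 were in both, 61.9% and 54.2% of those of each replicate, with 92.7% and 66.0% of reads. Over the shared deletions, Spearman's rho between replicate read counts was 0.733 at Site 7 (n = 33) and 0.704 at Site 9 (n = 13), a description across deletions that share their libraries. Deletions with at least 10 reads in 1 library and 0 in the other numbered 18 at Site 7, with up to 108 reads, and 13 at Site 9, with up to 188. When deletions found in only 1 library were left out, the share difference between the sites was 0.727 points and the PAM-side difference 34.5 points. Touching deletions found in both libraries held 320075 of 321966 and 326755 of 335793 touching reads at Site 7. At Site 9 they held 183838 of 193411 and 152553 of 158387. In every library this was a larger part than the shared near-cut deletions held of near-cut reads. Distinct touching deletions numbered 473 and 1003 in the Site 7 libraries, 440 and 370 in the Site 9 libraries, and 1587 in all. Distinct near-cut deletions numbered 38, 69, 21 and 24 in the same libraries and 106 in all. Over both sites, distinct deletions of the 2 kinds were thus shared to a similar extent, and low sharing was not particular to near-cut ones.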

How the data were processed

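Amplicons across the cut of Site 7 and of Site 9 were sequenced from E14 mESCs, 2 libraries each. The authors trimmed reads with Trim Galore 0.3.1 and ran CRISPResso 1.0.8, whose tables give each distinct aligned allele, per library. The deposited count is the number of reads of an allele, not normalised, and the deposited percent is that count over all aligned reads, used here as a check. The deposited columns of deleted, inserted and substituted bases are another kind of value, of which deleted bases were read. Alignments place each gap leftmost. Calling settings beyond the version are not given in the sources used here.

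From the counts, gaps were parsed with Python 3.11.15, pandas 2.3.3 and scipy 1.17.1, and the parser was tested on simulated data. Amplicons were matched to mm9. Site means were compared by exact permutation (2 against 2) and differences within libraries by exact sign flips over 4 libraries, with Benjamini-Hochberg adjustment over 6 tests and 0.05 as threshold. Depth was 380601 to 447620 aligned reads, so 3 reads are at most 0.000788% of a library. Named deletions were the 3 highest of each side and site, any among the 5 highest in both libraries, and the largest with at least 10 reads in both. The members, lists and tests were chosen with earlier results of these data known. Of the alternatives, 18 were planned and 2 were added after seeing the data: deletions found in both libraries, and crossed replicate numbers.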

Additional observations from a re-analysis of the deposited data

Results flagged for a closer look

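At Site 7 every library had more near-cut reads on the PAM side and at Site 9 every library had more on the protospacer side. The PAM-side share minus the protospacer-side share was 9.76 and 2.47 percentage points in Site 7 replicates 1 and 2, and -51.8 and -49.6 points in Site 9 replicates 1 and 2. The change of sign itself was not tested. Without the most abundant near-cut deletion of each site, the PAM side held 38.9% and 33.4% of near-cut reads in Site 7 replicates 1 and 2. It then held 49.6% and 36.6% in Site 9 replicates 1 and 2, so the positive sign at Site 7 rested on 1 deletion. The PAM-side interval of Site 7 replicate 2, from 49.9 to 52.6%, also included an even split.

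Simple deletions over 60 bp from the cut, which enter no comparison here, were found in 32 and 54 reads of Site 7 replicates 1 and 2 and in 1816 and 1804 reads of Site 9 replicates 1 and 2. Of these, 31, 51, 1772 and 1770 reads had the gap within 25 bp of an end of the aligned read, and 31, 53, 1704 and 1713 had lost a single base.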

How the results depend on the processing

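The means of the share difference, the ratio to distant deletions, the microhomology difference and the difference in modified calls kept their sign under every alternative run, although with touching judged by the leftmost placement alone the microhomology difference (mean -6.31 points) was positive in both Site 7 libraries. The PAM-side difference turned to -4.89 points without 1 bp deletions and to -6.98 points without the most abundant near-cut deletion of each site. The single-base difference turned to -12.3 points without those deletions, to -18.0 points with the cut 4 bp from the PAM, and to -0.37 points with touching judged by the leftmost placement alone. With the cut 4 bp from the PAM, the share difference rose from 0.710 to 18.8 points and the modified-call difference shrank to -9.45 points. Without the mismatch filter they were 1.90 and -32.7 points. The PAM-side difference was 67.2 points with touching judged by the leftmost placement, the log2 ratio 6.67 against 11 to 20 bp, and the microhomology difference -45.3 points with at least 1 bp. Leaving out 1 library at a time gave 0.626 to 0.794 points for the share, 26.6 to 30.2 for the PAM side, 8.17 to 11.06 for the log2 ratio, 14.1 to 24.2 for single bases, -31.3 to -22.2 for microhomology and -98.4 to -98.3 for modified calls. With the replicate block the share difference stayed at 0.710 and the PAM-side difference at 28.4 points (p = 0.5, the smallest that 2 pairs can give by exact permutation). Over 6 classes of side and distance, same-numbered libraries deviated in opposite directions (correlation -0.537), and pairing them crosswise put 0 results past the threshold. No result could pass 0.05 with 4 libraries, so the p-values say nothing about stability.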
